A study of Ovis aries with 6 samples.

Results

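The mature sequence of miR-210, the miRNA best known for its response to low oxygen, was examined in the male fetal rumen of ewes fed normally or underfed in late gestation. In the deposited tables this sequence is the entry novel_miR_879. It was chosen by that name, and it was 1 entry of the 1253 miRNAs listed in every library. The fetuses were wild-type Hu sheep, and the rumen was taken as whole tissue from 3 fetuses of control ewes (CON) and 3 of undernourished ewes (UN), 1 small RNA library each. Underfed ewes were given 30% of the baseline ration over 15 days from day 115 of gestation, and CON ewes were fed normally over the same days, so that tissue came from day 130 by the methods. The sample labels give day 115 for all 6 libraries and call the underfed group TR. The series text names other parts of the gut, while every sample is labelled rumen. The labels number the libraries without naming ewes, litters, batches or dates, so p-values measure the spread between these samples and no batch could be set against the groups.

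miR-210 is transcribed under the control of the hypoxia-inducible factors, which are stable when oxygen is scarce and degraded when it is plentiful. Its best studied targets include ISCU, a scaffold protein for building iron-sulfur clusters of the respiratory chain, EFNA3, a ligand that restrains vessel growth, and the cell cycle factor E2F3. It is also made in well oxygenated tissue, and in human pregnancy it is much studied in the placenta. These roles come mainly from human and mouse work. In bulk tissue fewer cells that make a miRNA and less of it per cell cannot be told apart.

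The sequences are shown because the identity of the entry rests on them, with the seed, bases 2 to 8 counted from the 5′ end, in capitals. The seed is the stretch by which a miRNA mainly pairs with its target mRNAs.
novel_miR_879: cUGUGCGUgugacagcggcugau
novel_miR_857: gUGUGCGGaaaugcuucugcua
The 23 bases of novel_miR_879 begin with those of the mature miRNA from the 3′ arm of miR-210. Both sequences were taken from the study's list of miRNA sequences, and the name miR-210 rests on general knowledge and was not compared with miRBase. Of the 1029 distinct sequences and 777 distinct seeds listed, no other entry had this sequence, its first 18 bases or its seed. Reads of novel_miR_879 were therefore not shared with another listed entry of the same sequence. The longest run of bases in common with any other entry was 9. The longest unbroken run of another entry complementary to it was 8 bases, and no entry was taken as the other arm of the hairpin. Pairing with mismatches, bulges or G to U pairs was not examined, so this check cannot tell whether the other arm is listed. The sequence was rich in G and C, which made up 60.9% of its bases against a median of 44.4% over the listed sequences. Its position in the genome was not analysed here.

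Only novel_miR_857, which carries the sequence of miR-147b, had bases 2 to 7 in common with novel_miR_879. It was much rarer, at 55.2, 65.6 and 61.2 RPM in CON and 74.3, 27.7 and 64.7 RPM in UN, where RPM is reads per 1000000 reads assigned to listed miRNAs. The groups overlapped, and the log2 fold change of novel_miR_857 was -0.24 (SE 0.33, limma adjusted p = 0.92). The mean level of novel_miR_879 was 10.8-fold that of novel_miR_857.

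novel_miR_879 stood at 767 RPM in CON 1, 908 RPM in CON 2 and 628 RPM in CON 3. It stood at 536 RPM in UN 1, 496 RPM in UN 2 and 441 RPM in UN 3. All 3 UN libraries lay below all 3 CON libraries, and the gap between the lowest CON and the highest UN library was 92.3 RPM. CON 2 was the highest of the 6 libraries and UN 3 the lowest, 2.06-fold apart, while the spread from lowest to highest was 1.45-fold within CON and 1.21-fold within UN.

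These levels rested on many reads. The entry held 18856, 16882 and 22345 reads in CON 1 to 3 and 10042, 10162 and 11943 reads in UN 1 to 3, among 18584326 to 35555822 assigned reads per library. The 95% Poisson interval of the level was 755.6 to 778 RPM in CON 1, 895 to 922 RPM in CON 2 and 620.2 to 637 RPM in CON 3. In UN it was 526 to 547 RPM, 487 to 506 RPM and 433 to 449 RPM. No interval of one library overlapped that of another, so counting error was small beside the spread between libraries on RPM. The intervals cover counting error only. They leave out the PCR copies and ligation preferences of small RNA libraries.

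By its mean of 630 RPM over the 6 libraries (629.5 to 1 decimal), novel_miR_879 was the 76th most abundant of the 1253 entries and the 35th of the 1101 without a sheep miRNA name. It made up 0.0622% of all assigned reads. Its rank by level within a library was 67, 70 and 65 in CON 1 to 3 and 81, 80 and 86 in UN 1 to 3. The rank, which does not change when a library is rescaled, was thus also separate between the groups. How many of the other listed miRNAs had ranks separate in this way was not counted. The miRNAs next to it in mean level were novel_miR_824 (637 RPM) and novel_miR_25 (632 RPM) above and oar-miR-3958-3p (624 RPM) and oar-let-7d (558 RPM) below. Their log2 fold changes were -0.03, 0.07, 0.03 and -0.14, and limma gave them adjusted p-values of 0.92 to 1.00. Only oar-let-7d, a member of the let-7 family of differentiation-linked miRNAs, also had UN wholly below CON, at 543, 509.6 and 539 RPM against 563, 596 and 596 RPM.

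Maternal undernutrition was compared with normal feeding to ask whether the fetal rumen held another level of this miRNA. Its CON mean was 768 RPM with an SD of 140.0 RPM and its UN mean 491 RPM with an SD of 47.6 RPM (n = 3 each), a difference of -277 RPM or 36.0% less in UN. On log2(RPM + 1), the log2 fold change from limma was -0.63 (SE 0.22, 95% interval -1.10 to -0.16), a fold of 0.645 with limits of 0.467 and 0.892. The unadjusted p was 0.012 and the Benjamini-Hochberg adjusted p over 567 tested miRNAs was 0.84, so the difference did not pass the threshold of 0.05. An exact two-sided permutation test of the 3 against 3 RPM values gave p = 0.10, the smallest that this design allows. The level of novel_miR_879 was thus lower in each UN library, and the difference of the means was larger than the SD of either group, without passing a test that allows for the number of miRNAs examined.

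The comparison has to be read against a background in which UN libraries were often the lower ones. No miRNA of the 567 tested (0%) passed the adjusted threshold in limma, and the median log2 fold change of all 567 was -0.12. Without adjustment 4.41% were lower in UN at p below 0.05, 25 in number, and 0.705% were higher, 4 in number. A fold under 0.67 in addition was met by 8 miRNAs (1.41%), novel_miR_879 among them on RPM. Its fold was not under 0.67 with the library scalings and count models tried, where it lay between 0.672 without oar-miR-143 and 0.728 in DESeq2 with no filter, nor without CON 2 (0.706) or UN 3 (0.680). In 12.3% of the tested miRNAs the 3 UN values were all under the 3 CON values. By its p-value novel_miR_879 ranked 4th of 567, and by the size of its decrease 8th. With 1 library left out its rank by p was 3 without CON 3, 13 without CON 1, 14 without UN 1 or UN 2, 36 without CON 2 and 49 without UN 3. Among the 151 tested miRNAs with a mean of at least 100 RPM, where the median log2 fold change was -0.08, 14 (9.27%) had UN wholly below CON and 5 (3.31%) were lower at unadjusted p below 0.05. Only novel_miR_138, at -0.74 with overlapping groups, had a lower log2 fold change than novel_miR_879 among these 151.

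**Figure D1:**
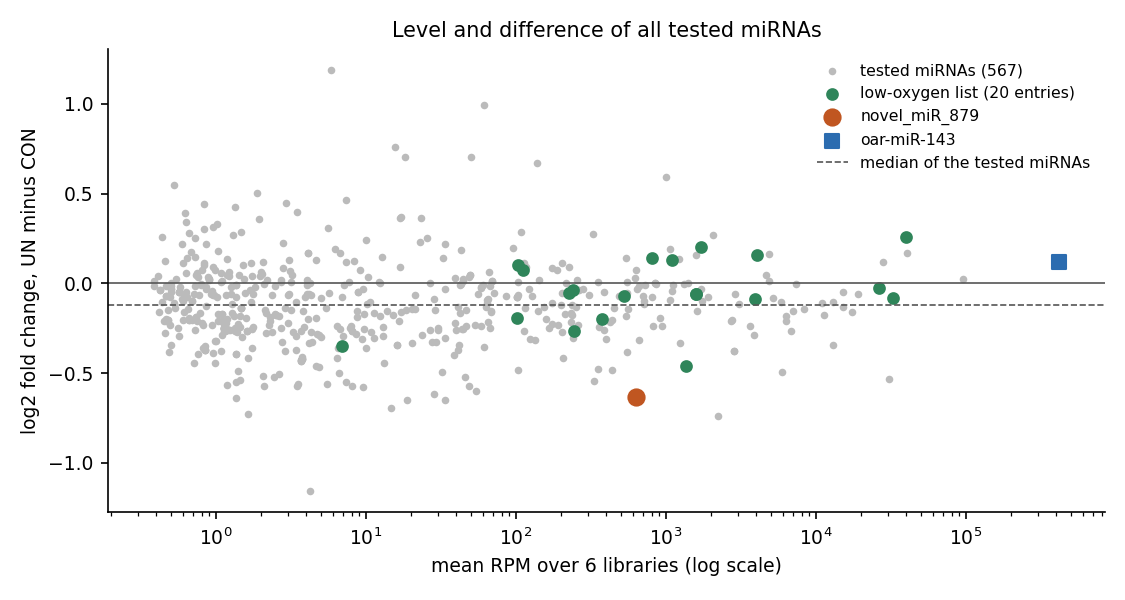
Log2 fold change in UN over CON (vertical axis) against mean RPM over the 6 libraries (horizontal axis, log scale) for 567 tested miRNAs in grey, with the 20 entries of the low-oxygen list in green, oar-miR-143 as a square and novel_miR_879 in orange. The dashed line is the median of all tested miRNAs at -0.12, and novel_miR_879 lies at -0.63 and 630 RPM, below each of the low-oxygen entries.

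The level of novel_miR_879 moved with the make-up of the library. oar-miR-143, the main miRNA of smooth muscle and the most abundant entry, took 42.3%, 29.5% and 50.0% of the assigned reads in CON 1 to 3 and 37.7%, 43.8% and 48.5% in UN 1 to 3. Assigned reads numbered 24598457, 18584326 and 35555822 in CON 1 to 3 and 18731340, 20480062 and 27059374 in UN 1 to 3. Within each group novel_miR_879 ran in the reverse order of both: it was highest where assigned reads and the oar-miR-143 share were lowest. Such a reverse order to assigned reads in both groups was seen in 113 of 567 tested miRNAs (19.9%). It was not peculiar to novel_miR_879, and with RPM a large share of 1 miRNA lowers the values of the others. The ranges of depth and of the oar-miR-143 share overlapped between CON and UN.

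Libraries of like depth can be set side by side. UN 1 held 1.01 times the assigned reads of CON 2, and its level of novel_miR_879 was 0.590 of that in CON 2. UN 3 held 1.10 times the reads of CON 1, and its level was 0.576 of that in CON 1. The oar-miR-143 share was higher in the UN library of both pairs. It was 37.7% in UN 1 against 29.5% in CON 2, and 48.5% in UN 3 against 42.3% in CON 1. The pairs were thus matched in depth only, and they hold the libraries with the highest and the lowest level of novel_miR_879. With assigned reads as a covariate, a fit chosen after the data were seen, limma gave a log2 fold change of -0.75 (SE 0.12, 95% interval -1.02 to -0.48) for novel_miR_879 with an adjusted p of 0.12, the lowest p of the 567. In that fit 12.5% of the tested miRNAs were lower in UN at unadjusted p below 0.05, 71 in number. The larger difference in novel_miR_879 thus came with a larger number of lower miRNAs in general.

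**Figure D2:**
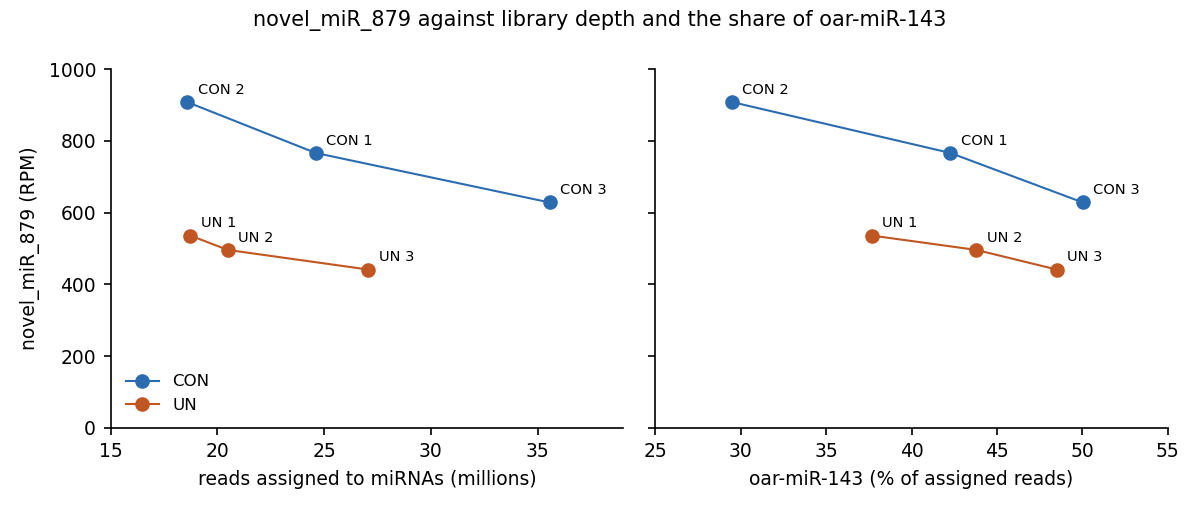
Level of novel_miR_879 in RPM (vertical axes) against reads assigned to miRNAs (left) and oar-miR-143 as a percentage of assigned reads (right), 1 point per library, with lines joining the libraries of a group in order. In both groups the level runs downward with either measure, and the UN line lies below the CON line throughout, as between UN 1 (536 RPM at 18731340 reads) and CON 2 (908 RPM at 18584326 reads).

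Rescaling the libraries reduced the difference in novel_miR_879 and brought the libraries of a group closer together. The scaled values below were set so that the average library is unchanged. With TMM factors, which align the bulk of miRNAs between libraries, novel_miR_879 stood at 747, 704 and 681 scaled RPM in CON 1 to 3 and 544, 534 and 468 scaled RPM in UN 1 to 3. The means were 711 ± 33.2 and 516 ± 41.4 (SD, n = 3), 27.5% lower in UN. With DESeq2 size factors the values were 725, 699 and 698 in CON and 522, 531 and 489 in UN, 27.4% lower. The coefficient of variation was 18.2% in RPM and 2.22% under this scaling within CON, and 9.68% and 4.35% within UN.

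Among the 5 scalings tried on single libraries, the groups lay farthest apart when the reads of oar-miR-143 were left out of the library total. novel_miR_879 then stood at 753, 730.3 and 713 scaled RPM in CON 1 to 3 and 488, 500.3 and 486 scaled RPM in UN 1 to 3. The means were 732 ± 19.97 and 491 ± 7.91 (SD, n = 3), 32.9% lower in UN, and the gap between the groups was 213 scaled RPM against 92.3 RPM as deposited. The reverse order of level and depth within both groups was no longer present. Without the 10 most abundant miRNAs novel_miR_879 was 29.3% lower, and with upper-quartile scaling 31.7% lower. The groups did not overlap in novel_miR_879 on the deposited scale or under these 5 scalings, which all rescale the same 6 libraries. UN lay wholly below CON in 12.3% of all tested miRNAs on RPM, 4.06% with TMM and 10.2% without oar-miR-143. That share was not counted under the other scalings.

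**Figure D3:**
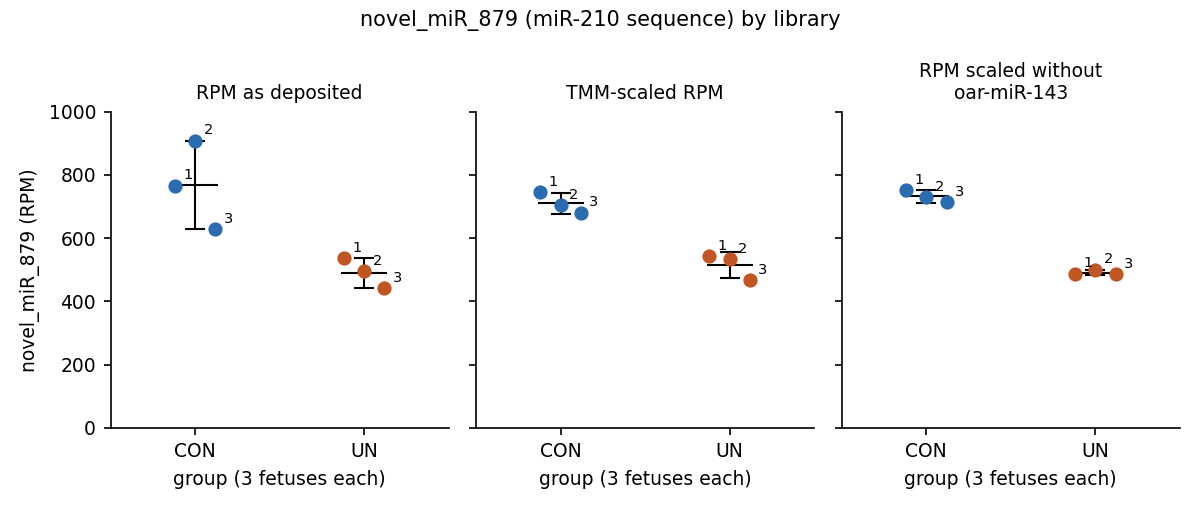
Level of novel_miR_879 in each library (points, numbered by replicate) with the group mean and SD (bars, n = 3) as deposited in RPM, with TMM scaling and with the library total counted without oar-miR-143. UN lies below CON in each panel, with means of 491 against 768, 516 against 711 and 491 against 732, and the spread within CON is smaller in the scaled panels.

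The tests on scaled values gave the same direction. The log2 fold change of novel_miR_879 was -0.46 (SE 0.14, limma unadjusted p = 0.0069, adjusted p = 0.75) with TMM and -0.57 (SE 0.11, 95% interval -0.84 to -0.31, unadjusted p = 0.00092, adjusted p = 0.26) without oar-miR-143. Scaling moved the median log2 fold change of all tested miRNAs from -0.12 in RPM to 0.01 with TMM. Relative to the median of its own scale, novel_miR_879 lay at -0.51 in RPM, -0.48 with TMM, -0.47 with DESeq2 size factors, -0.50 with upper-quartile scaling, -0.50 without oar-miR-143 and -0.48 without the 10 most abundant. A factor per library moves all miRNAs together on the log scale apart from the pseudocount, so these values are close by construction. The background changed as well: with TMM 2.12% of tested miRNAs were lower at unadjusted p below 0.05 and 4.06% had UN wholly below CON, and without oar-miR-143 these shares were 5.11% and 10.2%.

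Count models on the reads recovered from the RPM values gave a difference of like size. edgeR gave -0.46 (adjusted p = 0.82), and -0.52 (adjusted p = 0.57) with all listed miRNAs in the fit. DESeq2, the tool named in the study's methods, gave -0.46 (SE 0.12) with an adjusted p of 0.017 over the same 567 miRNAs, which passed the threshold. Lower calls in that fit made up 0.353% of the tested miRNAs, namely novel_miR_879 and novel_miR_775. The call was lost with all listed miRNAs in the DESeq2 fit (adjusted p = 0.39) and when any 1 library was left out, with adjusted p of 0.081 to 1.00 and log2 fold changes of -0.50 to -0.44. In limma on RPM the log2 fold change of novel_miR_879 ranged from -0.77 without CON 3 to -0.50 without CON 2, with unadjusted p of 0.0029 to 0.047 and adjusted p of 0.38 to 1.00.

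**Figure D4:**
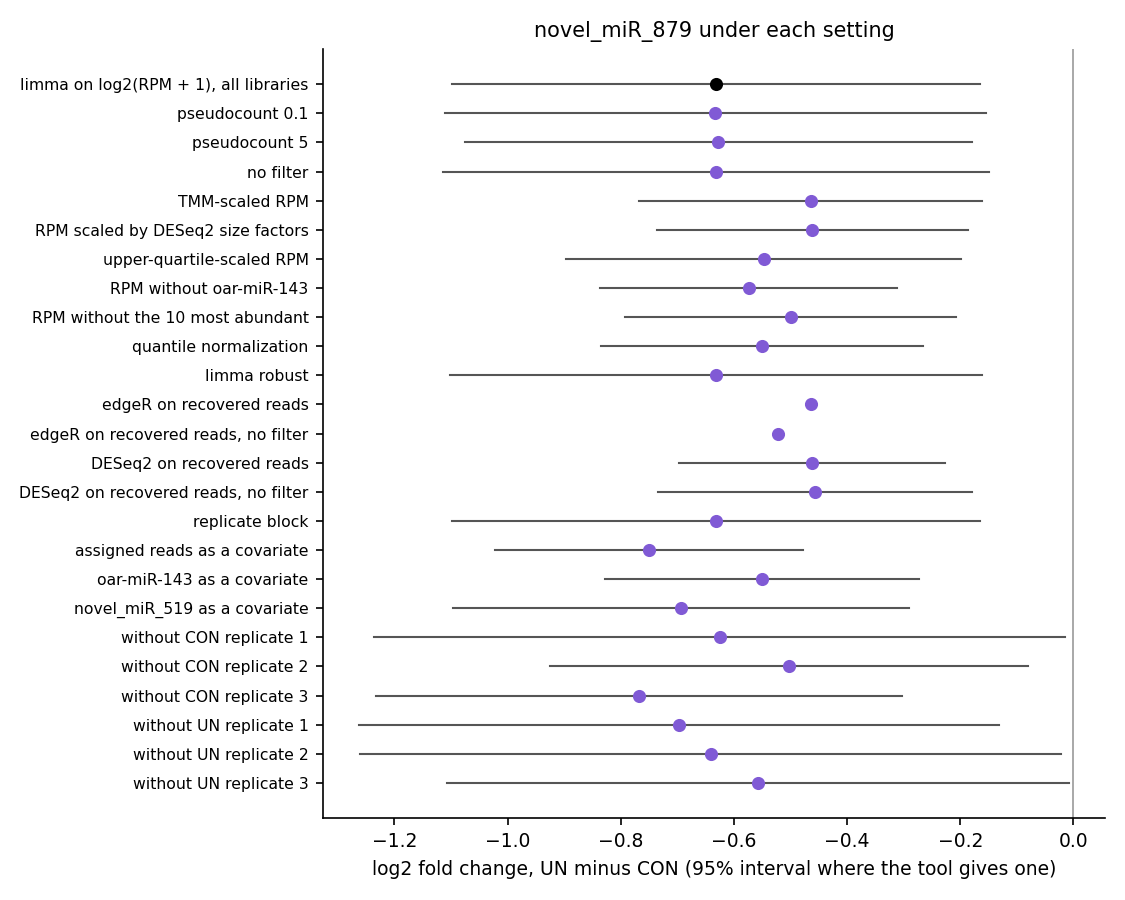
Log2 fold change of novel_miR_879 in UN over CON (horizontal axis) under each setting (rows), with the 95% interval where the tool gives one. Each point lies below 0, between -0.77 without CON 3 and -0.46 with TMM, DESeq2 size factors, DESeq2 or edgeR with the filter. edgeR with no filter lies at -0.52, and the narrowest interval is that of DESeq2 (-0.70 to -0.23).

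A ratio of 2 miRNAs of one library does not depend on the library total, so novel_miR_879 was set against 7 miRNAs that are often used as references. It stood at 25.03%, 27.6% and 21.9% of their geometric mean in CON 1 to 3 and at 19.8%, 18.1% and 15.05% in UN 1 to 3. The groups did not overlap, and the share of tested miRNAs for which such a ratio separates the groups was not counted. The log2 ratio was -2.02 ± 0.17 (SD, n = 3) in CON and -2.51 ± 0.20 in UN, a difference of -0.50 (exact two-sided permutation p = 0.10, the smallest possible). Leaving out each reference in turn gave -0.55 to -0.43, and the geometric mean of all tested miRNAs as the reference gave -0.52.

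The references did not all give the same picture. Against oar-miR-191 novel_miR_879 stood at 73.8%, 69.4% and 63.9% in CON and 52.0%, 48.5% and 38.2% in UN, a log2 difference of -0.59. Against oar-miR-26a, an abundant miRNA linked to smooth muscle and growth arrest, it stood at 2.30%, 2.15% and 1.94% in CON and 1.17%, 1.09% and 1.17% in UN, a log2 difference of -0.89. UN lay wholly below CON against 5 of the 7 references, which also included oar-miR-25 (-0.57), oar-let-7a (-0.46) and oar-miR-16b (-0.42). The groups overlapped against oar-miR-103, at 42.7%, 67.7% and 40.0% in CON and 56.0%, 47.2% and 30.6% in UN (-0.17), and against novel_miR_191, which carries the sequence of miR-423-5p (-0.37). On RPM the log2 fold change of oar-miR-26a itself was 0.26 and that of oar-miR-103 was -0.46. Each ratio thus holds the difference of its reference as well as that of novel_miR_879. Both of these references are also entries of the low-oxygen list.

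**Figure D5:**
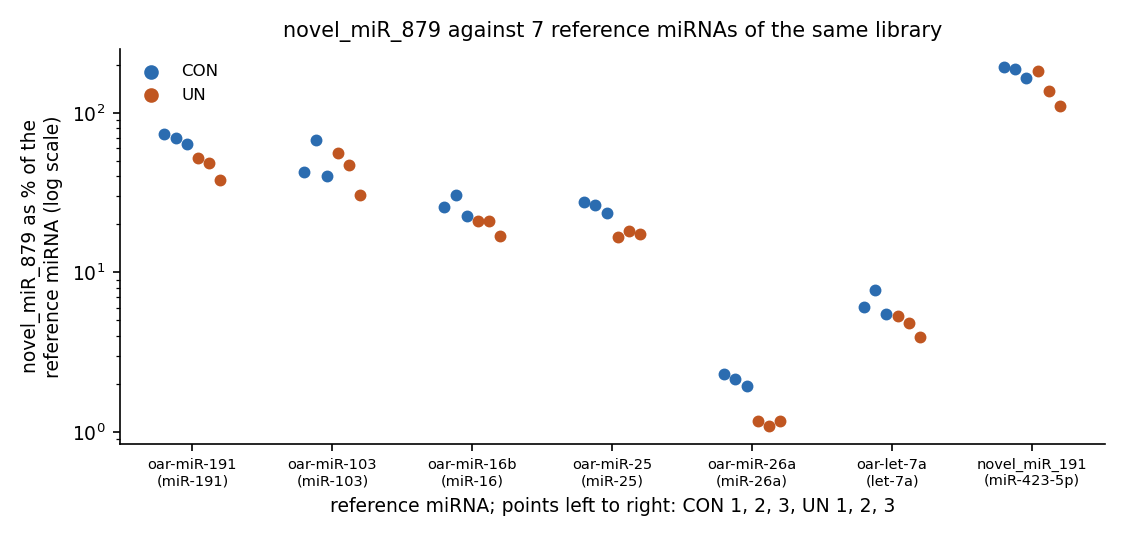
Level of novel_miR_879 as a percentage of each of 7 reference miRNAs of the same library (vertical axis, log scale), with the 3 CON and 3 UN libraries as points. UN lies wholly below CON for 5 references, with the widest separation against oar-miR-26a (1.94% to 2.30% in CON, 1.09% to 1.17% in UN), and overlaps CON for oar-miR-103 and novel_miR_191. The log2 fold change of oar-miR-26a itself was 0.26 on RPM, which adds to its separation.

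Other miRNAs that have been linked to low oxygen were described from a list of 20 entries without miR-210, all of which were tested. None of the 20 was lower and none was higher in UN at unadjusted p below 0.05 on RPM, against 4.41% and 0.705% of all tested miRNAs, and none passed the adjusted test. 13 lay below 0 and 7 above, with a median log2 fold change of -0.06 against -0.12 over all tested. 1 of the 20, oar-miR-106a of the growth-linked miR-17 family, had UN wholly below CON, against 12.3% of all tested miRNAs. It stood at 8.33, 8.07 and 7.14 RPM in CON and 6.09, 4.83 and 7.10 RPM in UN. Its lowest CON and highest UN values lay close together, at 7.14 and 7.10 RPM, where 1 read was worth 0.0281 to 0.0538 RPM. With TMM 5 of the 20 lay below 0 and the median was 0.11, so the direction of the list's median depended on the scaling. novel_miR_879 moved upward with the list, from -0.63 to -0.46. A shift common to all miRNAs changes the sign only of values near 0, so the kept sign does not set novel_miR_879 apart from the list.

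With all libraries on RPM, the entries at the ends of this list lay above novel_miR_879 in log2 fold change. oar-miR-103, which targets the enzyme Dicer and is known for roles in insulin sensitivity, stood at 1795, 1342 and 1571 RPM in CON and 957, 1051 and 1444 RPM in UN. Its log2 fold change was -0.46 (limma unadjusted p = 0.056), the lowest of the list, and its groups overlapped. Without CON 2 oar-miR-103 lay below novel_miR_879 instead, at -0.57 against -0.50, and so it did without UN 3, at -0.64 against -0.56. oar-miR-26a stood at 33399, 42331 and 32318 RPM in CON and 45867, 45382 and 37700 RPM in UN, with the highest log2 fold change of the list at 0.26 on RPM. On the TMM scale that of oar-miR-26a was 0.43 (unadjusted p = 0.0080), and that of oar-miR-23b, of the vessel-linked miR-23 to miR-27 to miR-24 cluster, was 0.37 (unadjusted p = 0.029). Higher values at unadjusted p below 0.05 were found in 2.82% of tested miRNAs on that scale. The number of the 20 that were higher at this threshold was 0 on RPM, 2 with TMM, 4 with DESeq2 size factors (3.53% of all tested) and 5 in DESeq2 (oar-miR-181a, oar-miR-23a, oar-miR-23b, oar-miR-26a and oar-miR-26b, against 3.7% of all tested), so it depended on the scaling, and none passed the adjusted test. oar-miR-21, widely induced in stressed and proliferating cells, was near 0 at -0.08 and oar-miR-107, close in sequence to oar-miR-103, was at -0.19. Entries of the list share reads in part: the 2 entries of miR-24 had identical values, and the 2 entries of miR-181b have 1 sequence.

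Markers of the cell types in the tissue were read beside novel_miR_879. The summed level of the 5 epithelial entries was 53651 to 60243 RPM in CON and 37194 to 53817 RPM in UN. All 5 had a log2 fold change below 0 on RPM and 3 of 5 with TMM. Of the 5, novel_miR_33, which carries the sequence of the keratinocyte miRNA miR-203, was at -0.53 (limma unadjusted p = 0.018). oar-miR-200b, which maintains the epithelial state, was at -0.50 (unadjusted p = 0.016), and both had an adjusted p of 0.84. oar-miR-200a, oar-miR-200c and the miR-205 entry novel_miR_360 were nearer 0, at -0.26, -0.16 and -0.08 (unadjusted p of 0.21 to 0.71). With TMM novel_miR_33 was at -0.37 (unadjusted p = 0.10) and oar-miR-200b at -0.33 (unadjusted p = 0.039). On RPM 4.41% of all tested miRNAs were lower at unadjusted p below 0.05, and with TMM 2.12%. The ranges of the smooth muscle entries overlapped, at 303592 to 508605 RPM in CON and 383628 to 493547 RPM in UN. So did those of the 3 striated muscle entries, at 4414 to 7924 and 3938 to 7344 RPM, and of the endothelial miR-126 entry, novel_miR_993, at 5844 to 8759 and 4999 to 6995 RPM. The miR-486 entry of red blood cells stood at 28.6 to 39.2 and 24.9 to 29.6 RPM, and the lymphocyte miRNA oar-miR-150 at 3.77 to 6.02 and 3.36 to 4.36 RPM. No defining marker of the list was at 0. The part of the epithelial markers in the level of novel_miR_879 was not tested.

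The liver miRNA miR-122, carried by novel_miR_519, which is not a rumen marker, was found at 6.63, 148 and 12.8 RPM in CON 1 to 3 and at 71.5, 25.5 and 34.2 RPM in UN 1 to 3. CON 2, the library with the most novel_miR_879, also had the most novel_miR_519. With novel_miR_519 as a covariate, a fit chosen after the data were seen, the log2 fold change of novel_miR_879 was -0.69 (limma adjusted p = 0.48), and without CON 2 it was -0.50.

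The miRNAs whose levels ran most like that of novel_miR_879 over the 6 libraries were sought among the other 566 tested. Pearson correlations of log2(RPM + 1) were 0.97 for novel_miR_641, 0.96 for novel_miR_915, 0.94 for novel_miR_254, 0.94 for novel_miR_742 and 0.94 for novel_miR_562. Of these, novel_miR_254 was the most abundant at 103 RPM, and novel_miR_742 had 0.977 RPM. The median correlation over all 566 was 0.49 and 23 lay above 0.9. These values share library totals and depth and are a description only.

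With the group means subtracted, which leaves the variation among libraries of one group, another set of 5 ran most like novel_miR_879. oar-miR-329b-3p, oar-miR-374b, novel_miR_25, novel_miR_844 and oar-miR-369-3p each had a correlation of 0.99. The median over all 566 was then 0.67 and 108 lay above 0.9, while oar-miR-143 was at -0.97. Thus within groups novel_miR_879 followed a course common to many miRNAs and opposite to oar-miR-143. These 5 did not separate CON from UN: novel_miR_25, which lies next to novel_miR_879 in mean level, stood at 587, 850.4 and 439 RPM in CON and 733, 640.3 and 545 RPM in UN.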

How the data were processed

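Small RNAs of 18 to 30 nucleotides were sequenced from 6 libraries, 3 CON and 3 UN, grouped by sample title. The authors used Bowtie2 for alignment to the sheep genome and deposited RPM, scaled so that the 1253 listed miRNAs of a library sum to 1000000, in a column named TPM. For the Bowtie2 version and the program behind new miRNAs nothing was given in the sources, and labels and paper name different library kits. All values above 0 (100%) were whole multiples of 1 read, within 0.001 reads, so reads were recovered. Totals were 18584326 to 35555822 assigned reads, and 1 read was worth 0.0281 to 0.0538 RPM. No 2 libraries of the same group agreed within sampling noise.

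UN and CON were compared on log2(RPM + 1) by limma 3.58.1 (trend; R 4.3.3) without covariates. edgeR's filterByExpr (version 4.0.16, minimum count 10, minimum total 15, on recovered reads) kept 567 miRNAs, and p-values were Benjamini-Hochberg adjusted over them. edgeR's quasi-likelihood test and DESeq2 1.42.0 on the recovered reads, other scalings, pseudocounts of 0.1 and 5, no filter, covariates and each library left out were alternatives. Under the pseudocount, fold changes of low miRNAs are understated. The fit across all miRNAs was tested on simulated data drawn from a mean profile shared by all libraries, with set changes in UN. The outcome is not given here, and no result above rests on it.

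The text names novel_miR_879, the low-oxygen, reference and marker lists and oar-miR-143. It also names the 2 miRNAs on either side in mean level and the 5 most alike by each correlation. Entries sharing the seed of novel_miR_879 were to be named as well, but none was listed. novel_miR_857, novel_miR_138, novel_miR_775, novel_miR_529 and novel_miR_76 were named after their values were seen. The member and the lists were chosen with earlier results of these data known. Of the red blood cell miRNAs, miR-451 and miR-144 were not analysed here.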

Additional observations from a re-analysis of the deposited data

How the results depend on the processing

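The log2 fold change of novel_miR_879 kept its direction under every setting tried. In the fits with all libraries it ran from -0.75 with assigned reads as a covariate to -0.46. It was -0.46 with TMM, DESeq2 size factors, DESeq2 or edgeR with the filter, and -0.52 in edgeR with no filter. With 1 library left out it ranged from -0.77 to -0.50 in limma on RPM and from -0.50 to -0.44 in DESeq2. DESeq2 on the 567 filtered miRNAs alone passed the threshold, at -0.46 (adjusted p = 0.017). In limma the adjusted p of novel_miR_879 lay between 0.12 and 0.83 under the other settings with all libraries. The ratio to the references ranged from -0.58 to -0.39 with 1 library left out. The number of miRNAs lower in UN at unadjusted p below 0.05, 25 on RPM, was 43 with no filter, 12 with TMM, 14 with DESeq2 size factors, 15 with upper-quartile scaling, 14 with quantile normalization, 11 in edgeR, 8 in DESeq2, 12 in DESeq2 with no filter and 71 with assigned reads as a covariate, and 11 to 46 with 1 library left out of limma. Adjusted calls, 0 in limma on RPM with 29 at unadjusted p below 0.05, became 1 (novel_miR_529) with TMM, DESeq2 size factors, upper-quartile scaling, without oar-miR-143, without the 10 most abundant, with quantile normalization and in edgeR with or without the filter, 2 in limma robust (novel_miR_529 and novel_miR_775), 4 in DESeq2 (novel_miR_76 and novel_miR_529 higher, novel_miR_879 and novel_miR_775 lower), 2 in DESeq2 with no filter (novel_miR_529 and novel_miR_76), and, with 1 library left out, 0 to 3 in limma and 1 to 10 in DESeq2 (10 without CON 2 and 7 without UN 3). The low-oxygen list, with 0 lower on RPM, had 1 (oar-miR-30b, -0.39) with assigned reads as a covariate, 1 (oar-miR-103, -0.53) with oar-miR-143 as a covariate and 0 to 1 with 1 library left out of limma (oar-miR-103 without CON 2 and without UN 3). The causes of these changes were not tested.

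Same-numbered CON and UN libraries did not deviate together in every pair (correlations of -0.07, 0.07 and 0.19), so the numbers were not taken to pair the fetuses. With the replicate block the log2 fold change of novel_miR_879 was -0.63 (limma adjusted p = 0.74) and 28 miRNAs were lower at unadjusted p below 0.05.

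With 3 fetuses a group no exact test of a single value can go below 0.10. The covariate fits, the DESeq2 and edgeR fits with no filter and the DESeq2 fits with 1 library left out were chosen after seeing the data. novel_miR_879 had at least 10042 reads in each library, so counting error was small beside the spread between libraries on RPM.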
